A study of Mus musculus with 2 samples.

Results

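TGF-beta signalling genes were compared between mouse acute myeloid leukaemia cells from a library labelled P2X1-KO and cells from a library labelled WT. The set held 10 genes, found by symbol among the 46095 rows of the count table: the ligand Tgfb1, the receptors Tgfbr1, Tgfbr2 and Eng, the SMADs Smad2, Smad3, Smad4 and Smad7, and the co-repressors Ski and Skil. All 10 had counts in both libraries. Both groups were leukaemia-initiating cells of C57BL/6 mice aged 8 weeks, sorted from bone marrow as Mac1+ C-kit+. One group carries the genotype label P2x1-KO and the other the label wild type, while the protocol text also calls them P2X1-KD and P2X1-Scr, so a knockout and a knockdown cannot be told apart from the labels. P2X1 is an ATP-gated cation channel encoded by P2rx1. The sources used here do not give the oncogene that drives the leukaemia, the number of mice or any pooling. There was 1 library per group, so the differences below were not checked against replicates and no p-value was computed. All intervals are 95% intervals for counting error only.

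TGF-beta is a secreted cytokine that is stored in a latent form and acts once it is released. Active ligand binds the type II receptor, which recruits and phosphorylates the type I receptor, and the type I receptor phosphorylates SMAD2 and SMAD3. These join SMAD4 and enter the nucleus, where SKI and SKIL (also called SnoN) hold back their target genes and SMAD7 closes the loop by shutting down the receptors. In blood-forming tissue the pathway is known for restraining the division of stem and progenitor cells.

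The libraries held 9447894 counts (labelled P2X1-KO) and 14658620 counts (labelled WT). Counts were scaled with the trimmed mean of M values (TMM), which corrects for differences in composition, and are given in CPM, that is, relative to a library of one common size. P2rx1, the targeted gene, had 45 counts (5.07 CPM) in the library labelled P2X1-KO and 27 counts (1.73 CPM) in the library labelled WT. The ratio of 2.93 (interval 1.78 to 4.90) goes against the label, so every direction below is one between libraries as labelled. The sorted markers were present, with Kit at 19.9 CPM in the library labelled P2X1-KO against 13.3 CPM in the library labelled WT, and Itgam at 504 CPM (labelled P2X1-KO) against 307 CPM (labelled WT).

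The main difference in the set was in one receptor. Of the 10 genes, only Tgfbr2 was higher by 2-fold or more in the library labelled P2X1-KO, and 0 were lower by that much. Among the 10483 genes whose mean over both libraries reached 5 CPM, 12.1% were higher and 10.6% lower by 2-fold or more, so 1 of 10 is close to the share found among all genes. The ratio was above 1 for 5 of the 10 genes and below 1 for 5, and 6 lay within 1.5-fold. At 1.5-fold or more, 3 of the 10 were higher (Tgfb1, Tgfbr2 and Eng) and 1 was lower (Ski), beside 21.9% of the 10483 genes higher and 24.2% lower. Their median log2 difference, taken as log2(CPM + 0.5) in the library labelled P2X1-KO minus the same in the library labelled WT, was 0.03, beside -0.08 for all 10483 genes. That median had the opposite sign, -0.14, when libraries were scaled by total counts, which also moved the median of all genes to -0.26.

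**Figure D1:**
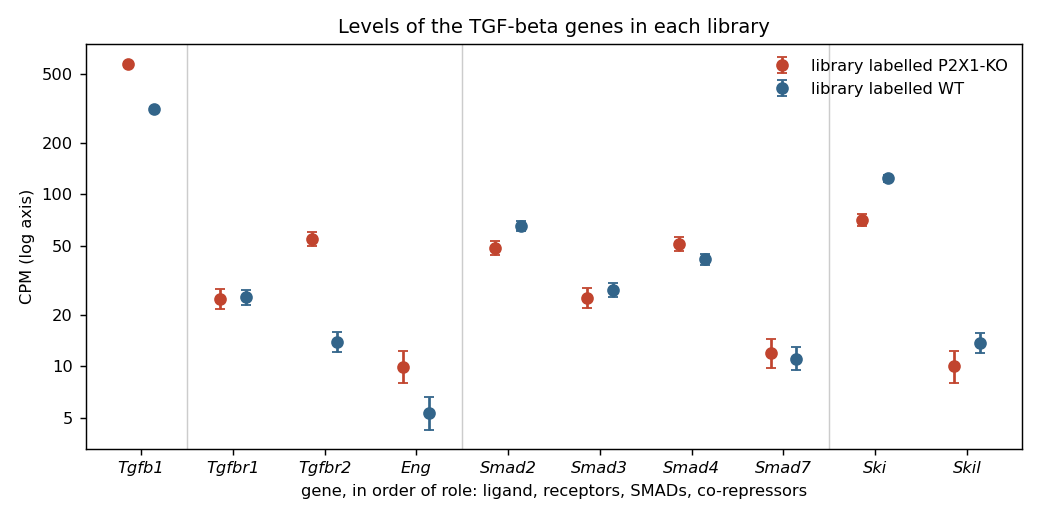
Levels of the 10 genes in CPM on a log axis, with the library labelled P2X1-KO on the left and the library labelled WT on the right of each pair. Points are single libraries and bars are exact 95% Poisson intervals of the count. Tgfbr2 has the widest gap (54.9 CPM labelled P2X1-KO, 13.9 CPM labelled WT).

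The ligand gene had the highest level of the set. Tgfb1, on the plus strand of chromosome 7 from 25687002 to 25705077 (mm10), had 5062 counts in the library labelled P2X1-KO and 4868 in the library labelled WT, or 570 CPM (labelled P2X1-KO) against 312 CPM (labelled WT). Its ratio was 1.83 (interval 1.75 to 1.90), and 85.3% of the 10483 genes had a lower ratio. Under 4 other scalings, and after a correction that subtracts the median difference of genes of like exon length and GC content, it lay between 1.59 and 1.95, short of 2-fold in each. Per kilobase of exon, the scale used here to compare levels between genes, Tgfb1 stood at 113 CPM per kb in the library labelled P2X1-KO and 61.9 in the library labelled WT, first of the 10 genes in both. The other ligand genes were nearly absent. Tgfb2 had 0 counts in the library labelled P2X1-KO and 6 in the library labelled WT, and Tgfb3 had 0 counts in the library labelled P2X1-KO and 3 in the library labelled WT. The exact Poisson interval of a count of 0 reaches 3.69 counts.

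The signalling receptors differed from each other in how they compared. Tgfbr2 encodes the type II receptor, which binds the ligand. It had 488 counts in the library labelled P2X1-KO and 217 in the library labelled WT, or 54.9 CPM (labelled P2X1-KO) against 13.9 CPM (labelled WT), a ratio of 3.95 (interval 3.36 to 4.65). Its whole interval lay beyond 2-fold higher, as it did for 9.37% of the 10483 genes (6.21% lay wholly beyond 2-fold lower, with 0 of the 10 genes), and 4.58% of them had a ratio at least as high. Tgfbr2 maps to the minus strand of chromosome 9 (116084293 to 116175360). Tgfbr1, which encodes the type I receptor kinase, had 219 counts in the library labelled P2X1-KO and 394 in the library labelled WT, or 24.7 CPM (labelled P2X1-KO) against 25.3 CPM (labelled WT). Its ratio of 0.976 had an interval that held 1 (0.823 to 1.15), and the ratio was above 1 with upper-quartile scaling (1.03) and after the length and GC correction (1.16). Tgfbr1 maps to the plus strand of chromosome 4 (47353222 to 47414931).

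The balance of the receptor transcripts therefore differed between the libraries, and this comparison needs no scaling between them. There were 2.23 Tgfbr2 counts per Tgfbr1 count in the library labelled P2X1-KO and 0.551 in the library labelled WT, a 4.05-fold difference (interval 3.19 to 5.13). Per kilobase of exon, Tgfbr2 was above Tgfbr1 in the library labelled P2X1-KO, at 6.71 against 3.77 CPM per kb, and below it in the library labelled WT, at 1.70 against 3.87 CPM per kb. The order in each library was the same with the length of the longest transcript in place of all exons. Both receptors together made up 79.6 CPM in the library labelled P2X1-KO and 39.2 CPM in the library labelled WT.

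The start regions of the receptor genes are shown because their ratios stood so far apart. The windows run from 250 bases before to 50 bases after the start in RefSeq (GRCm38.p6), at chr9:116175314-116175613 on the minus strand and chr4:47352972-47353271 on the plus strand, which is the first of 2 windows listed for Tgfbr1. Capitals mark CAGAC, the short site bound by SMAD3 and SMAD4, and GGGCGG, the GC box bound by SP1 and its relatives, searched on both strands.
Tgfbr2: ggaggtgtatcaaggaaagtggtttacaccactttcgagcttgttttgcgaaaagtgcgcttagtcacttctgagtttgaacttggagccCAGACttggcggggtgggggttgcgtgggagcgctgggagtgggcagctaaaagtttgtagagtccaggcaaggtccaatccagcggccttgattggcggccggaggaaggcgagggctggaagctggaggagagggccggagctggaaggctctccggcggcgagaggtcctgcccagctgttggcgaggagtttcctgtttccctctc
Tgfbr1: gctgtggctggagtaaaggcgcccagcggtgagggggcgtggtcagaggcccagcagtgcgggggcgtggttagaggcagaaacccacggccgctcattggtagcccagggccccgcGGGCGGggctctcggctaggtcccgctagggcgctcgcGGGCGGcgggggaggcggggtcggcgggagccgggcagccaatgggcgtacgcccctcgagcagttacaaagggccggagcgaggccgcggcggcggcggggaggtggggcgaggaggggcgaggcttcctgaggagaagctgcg
The Tgfbr2 window held 1 CAGAC and 0 GGGCGG, and 59.0% of its bases were G or C. The Tgfbr1 window shown held 0 CAGAC and 2 GGGCGG, with 74.7% G or C. The other window listed for Tgfbr1 (chr4:47385966-47386265) held 1 CAGAC and 0 GGGCGG, with 52% G or C. Its motif counts equal those of the Tgfbr2 window, so the receptor genes are not told apart by these motifs. Of 32851 promoter windows of the same length, 49.6% held CAGAC and 35.7% held GGGCGG, so neither is unusual. The palindrome GTCTAGAC, which does not contain CAGAC on either strand, was in 0.213% of windows. Of the 10 genes, 6 had a window, 7 in all, and none held the palindrome.

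Eng encodes endoglin, a co-receptor that binds TGF-beta family ligands with the type II receptors and is known from endothelium and early blood progenitors. It had 88 counts in the library labelled P2X1-KO and 83 in the library labelled WT, or 9.91 CPM (labelled P2X1-KO) against 5.32 CPM (labelled WT). The ratio was 1.86, and at this depth its interval (1.36 to 2.54) reached from well under to above 2-fold. Eng maps to the plus strand of chromosome 2 (32646595 to 32682669), and 61 of its 4048 exon bases overlap exons of Fpgs on the other strand. The sources used here do not give the strand setting of the counting, so reads in that overlap cannot be assigned with certainty.

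Markers of other cell types also differed between the libraries, and the part of such cells in the values of Tgfb1, Tgfbr2 and Eng was not tested. Fewer cells of a type and less RNA per cell cannot be told apart in bulk samples. Nor can marker RNA of the sorted cells themselves be told from that of other cells. Of the 10 macrophage and monocyte markers, 9 reached a mean of 5 CPM. All 9 were higher by 2-fold or more in the library labelled P2X1-KO, beside 12.1% of the 10483 genes. A gene low in one library reaches that mean only where the other is high, so the minimum fixed the direction of such genes. Csf1r, Adgre1, Cd68 and Lyz2 were above 5 CPM in both libraries. C1qa, C1qb, C1qc, Cx3cr1 and Marco were below 5 CPM in the library labelled WT. The summed level of all 10 markers was 5256 CPM in the library labelled P2X1-KO and 352 CPM in the library labelled WT. Mrc1 was at 0 counts in the library labelled P2X1-KO. The 10 neutrophil markers summed to 12758 CPM in the library labelled P2X1-KO and 3218 CPM in the library labelled WT, and 8 of 9 measured were higher by 2-fold or more. Ly6g, the other measured marker, lay the other way, at 4.05 CPM in the library labelled P2X1-KO against 6.99 CPM in the library labelled WT. Eosinophil markers, 3 of 8 measured and all 3 higher, summed to 212 CPM in the library labelled P2X1-KO against 7.504 CPM in the library labelled WT. Of the 3, only Siglecf was above 5 CPM in both libraries. Ear6, below the minimum, lay the other way, at 0 counts in the library labelled P2X1-KO and 19 in the library labelled WT. Ear1, Ccr3 and Il5ra were at 0 counts in both. For mast cells and basophils the sums were 109 CPM (labelled P2X1-KO) and 48.1 CPM (labelled WT), and 2 of 3 measured markers were higher by 2-fold or more. Mcpt8, the other measured marker, was lower, at 23.0 CPM (labelled P2X1-KO) against 34.0 CPM (labelled WT), most of the sum in the latter. Cpa3, with 1 count in the library labelled WT, reached the mean of 5 CPM through the library labelled P2X1-KO alone. Tpsb2, Tpsab1, Fcer1a and Cma1 were at 0 counts in both libraries.

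Markers of non-blood cells and of platelets were uneven, with several at 0 in both libraries. The 10 endothelial markers summed to 63.8 CPM in the library labelled P2X1-KO and 21.2 CPM in the library labelled WT, and Pecam1 alone made up 42.4 CPM (labelled P2X1-KO) and 12.3 CPM (labelled WT) of these. Kdr, Tek and Emcn were at 0 counts in both libraries. Fibroblast and stromal markers summed to 251 CPM (labelled P2X1-KO) and 95.1 CPM (labelled WT). Among these, Col1a1, Col1a2 and Col3a1 were the 3 genes higher by 2-fold or more. Each reached the mean of 5 CPM through the library labelled P2X1-KO alone. Pdgfrb, the only other measured marker of the list, lay the other way, at 47.1 CPM in the library labelled P2X1-KO against 93.1 CPM in the library labelled WT (1.98-fold lower), and made up most of the sum in the library labelled WT. Dcn, Lum and Pdgfra had 0 counts in both libraries. Megakaryocyte and platelet markers summed to 24.2 CPM (labelled P2X1-KO) and 8.15 CPM (labelled WT), with Pf4 and Ppbp at 0 in both. T cell, B cell, erythroid and NK cell markers summed to 19.0, 50.7, 2.14 and 0.788 CPM (labelled P2X1-KO), against 11.5, 17.96, 1.09 and 0.0641 CPM (labelled WT). Cd79b alone made up 47.4 CPM (labelled P2X1-KO) and 14.7 CPM (labelled WT) of the B cell sum. Bcl11b made up 10.7 CPM (labelled P2X1-KO) and 6.03 CPM (labelled WT) of the T cell sum. Ms4a1, Pax5, Ebf1, Cd3g, Cd4, Cd8a and Trbc2 were at 0 counts in both libraries.

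The signal-carrying SMADs were closer between the libraries than the type II receptor, and they did not all lie on one side. Smad2 had 433 counts in the library labelled P2X1-KO and 1021 in the library labelled WT, or 48.7 CPM (labelled P2X1-KO) against 65.5 CPM (labelled WT). It was 1.34-fold lower (interval 1.20 to 1.51), but its ratio was 1.01, on the other side of 1, after the length and GC correction. Smad3, the second SMAD phosphorylated by the type I receptor, had 222 counts in the library labelled P2X1-KO and 435 in the library labelled WT, or 25.0 CPM (labelled P2X1-KO) against 27.9 CPM (labelled WT), and its interval held 1 (ratio 0.896, interval 0.759 to 1.06). Smad4, the partner shared with the BMP branch, had 457 counts in the library labelled P2X1-KO and 652 in the library labelled WT, or 51.4 CPM (labelled P2X1-KO) against 41.8 CPM (labelled WT). Its ratio was 1.23 (interval 1.09 to 1.39), and 1.07 to 1.30 under the other scalings.

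By counts within each library, Smad4 was thus more abundant relative to Smad2 in the library labelled P2X1-KO. The count ratio of Smad4 to Smad2 was 1.06 there and 0.639 in the library labelled WT, a 1.65-fold difference (interval 1.40 to 1.95). The length and GC correction does not cancel between genes and was not applied to pairs. After it the ratios of Smad4 (1.22) and Smad2 (1.01) lay closer together than with TMM (1.23 and 0.744). Smad2 had 1.95 counts per Smad3 count in the library labelled P2X1-KO and 2.35 in the library labelled WT, with an interval of the 0.831-fold difference that held 1 (0.680 to 1.02). Summed over Smad2, Smad3 and Smad4, the level was 125 CPM in the library labelled P2X1-KO and 135 CPM in the library labelled WT, a ratio of 0.926 (interval 0.860 to 0.996). Smad2 and Smad4 both map to chromosome 18, Smad2 to the plus strand (76241580 to 76310963) and Smad4 to the minus strand (73639009 to 73703780). Smad3 maps to the minus strand of chromosome 9 (63646767 to 63757994).

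Smad7, the inhibitory SMAD that is itself switched on by TGF-beta, was near level. It had 106 counts in the library labelled P2X1-KO and 173 in the library labelled WT, or 11.9 CPM (labelled P2X1-KO) against 11.1 CPM (labelled WT). The ratio of 1.08 had an interval of 0.836 to 1.38, which held 1. Total-count scaling put the ratio at 0.951, or at 0.939 when the 20 most abundant genes were left out of the totals. Relative to Smad3, there were 0.477 Smad7 counts per Smad3 count in the library labelled P2X1-KO and 0.398 in the library labelled WT, with an interval of the 1.20-fold difference that held 1 (0.887 to 1.62). Smad7 also maps to chromosome 18, plus strand (75367529 to 75395935).

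**Figure D2:**
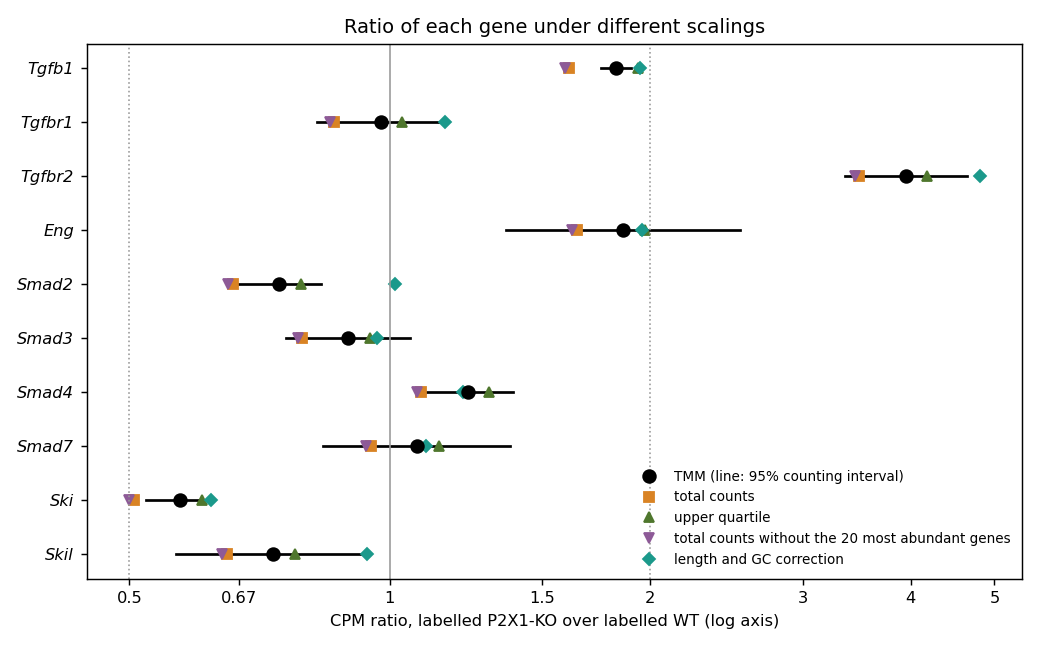
CPM ratio of each gene, the library labelled P2X1-KO over the library labelled WT, on a log axis. Black points use TMM with their 95% counting interval, coloured points the other scalings and the length and GC correction, and dotted lines mark 2-fold. Median-of-ratios scaling gave nearly the TMM values and is not drawn. Tgfbr2 stays between 3.45 and 4.81, and Ski does not pass 0.622.

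Ski was the lowest of the set by ratio. The protein binds SMAD complexes and recruits histone deacetylase co-repressors. Ski had 629 counts in the library labelled P2X1-KO and 1929 in the library labelled WT, or 70.8 CPM (labelled P2X1-KO) against 124 CPM (labelled WT). It was 1.75-fold lower (interval 1.60 to 1.91), and 15.6% of the 10483 genes had a lower ratio. When the 20 most abundant genes were left out of the totals its ratio was 0.4999, just past the 2-fold line, and with total counts it was 1.98-fold lower. Ski maps to the minus strand of chromosome 4 (155154075 to 155222592). Skil, the related co-repressor that TGF-beta is known to induce, had 89 counts in the library labelled P2X1-KO and 213 in the library labelled WT, or 10.02 CPM (labelled P2X1-KO) against 13.7 CPM (labelled WT). It was 1.36-fold lower (interval 1.06 to 1.77), and 1.06-fold lower after the length and GC correction. Skil maps to the plus strand of chromosome 3 (31095058 to 31122577).

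The start region of Ski, at chr4:155222486-155222785 on the minus strand, is shown as that of the gene with the lowest ratio, with the same motifs in capitals.
Ski: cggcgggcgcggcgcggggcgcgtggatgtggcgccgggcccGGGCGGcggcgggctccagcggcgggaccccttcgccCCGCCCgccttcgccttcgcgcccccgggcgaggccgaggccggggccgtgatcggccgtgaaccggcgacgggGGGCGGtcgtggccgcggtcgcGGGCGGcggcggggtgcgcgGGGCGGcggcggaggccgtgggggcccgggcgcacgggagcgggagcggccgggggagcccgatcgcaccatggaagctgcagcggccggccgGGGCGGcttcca
It held 0 CAGAC and 6 GGGCGG, and 85.3% of its bases were G or C, the highest share among the set's listed windows.

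Set against the SMADs it restrains, Ski was lower in the library labelled P2X1-KO. There were 1.38 Ski counts per Smad4 count in that library and 2.96 in the library labelled WT, 2.15-fold lower (interval 1.85 to 2.50). Per Smad3 count there were 2.83 Ski counts in the library labelled P2X1-KO and 4.43 in the library labelled WT, 1.57-fold lower (1.29 to 1.89). Skil per Smad3 stood at 0.401 in the library labelled P2X1-KO and 0.490 in the library labelled WT, with an interval of the 0.819-fold difference that held 1 (0.601 to 1.11).

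The order of the 10 genes by level per kilobase of exon had Tgfb1 first in both libraries and kept Smad4, Smad2, Smad3, Tgfbr1 and Smad7 in one order, while Ski, Tgfbr2, Eng and Skil changed places. For the library labelled P2X1-KO it ran Tgfb1, Smad4 (13.9 CPM per kb), Ski (12.7), Tgfbr2 (6.71), Smad2 (5.55), Smad3 (4.51), Tgfbr1 (3.77), Smad7 (2.64), Eng (2.45) and Skil (1.03). There the counting intervals of these neighbours overlapped, so that they could not be ranked: Smad4 with Ski, Smad2 with Smad3, Smad3 with Tgfbr1, and Smad7 with Eng. For the library labelled WT it ran Tgfb1, Ski (22.2), Smad4 (11.3), Smad2 (7.46), Smad3 (5.03), Tgfbr1 (3.87), Smad7 (2.45), Tgfbr2 (1.70), Skil (1.41) and Eng (1.32), where the interval of Skil overlapped those of Tgfbr2 and Eng. With the longest transcript as the length, Smad7 and Eng changed places in the library labelled P2X1-KO, and Tgfbr2 and Skil in the library labelled WT.

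**Figure D3:**
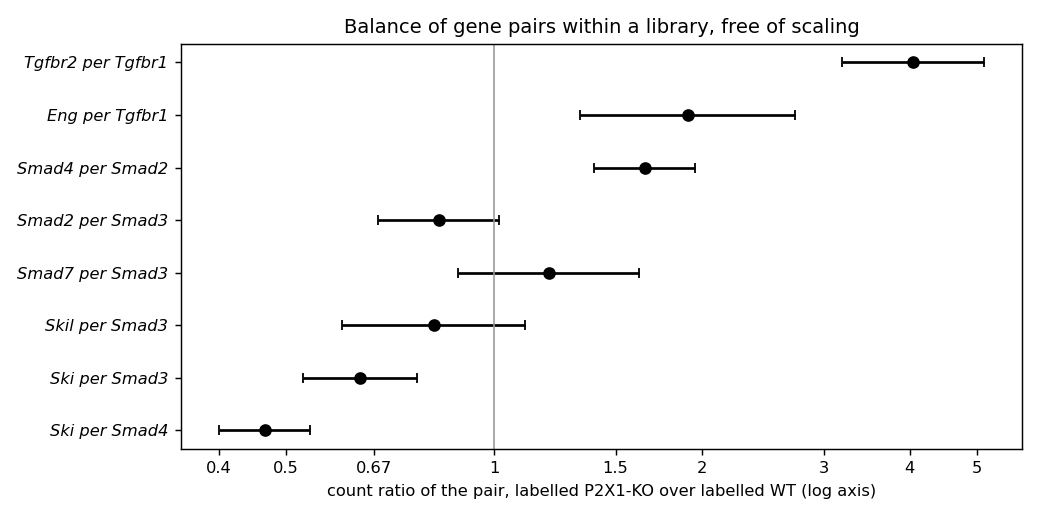
Count ratio of gene pairs in the library labelled P2X1-KO over the same ratio in the library labelled WT, on a log axis, with exact conditional 95% intervals. Scaling cancels out of these values, but the length and GC correction does not cancel between genes and was not applied to them. Of the pairs drawn, Tgfbr2 per Tgfbr1 is highest at 4.05 and Ski per Smad4 lowest at 0.465.

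Set among all genes by ratio, Tgfbr2 stood out from the rest of the set. The counting interval left out 1 on the higher side for Tgfb1, Tgfbr2, Eng and Smad4 and on the lower side for Smad2, Ski and Skil, while it held 1 for Tgfbr1, Smad3 and Smad7. That is 4 of 10 and 3 of 10, beside 35.9% of the 10483 genes on the higher side and 43.7% on the lower. The share of genes with a lower ratio was 95.4% for Tgfbr2, lay between 15.6% (Ski) and 85.9% (Eng) for the other 9, and lay between 31.1% and 68.1% for the SMADs, Tgfbr1 and Skil.

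**Figure D4:**
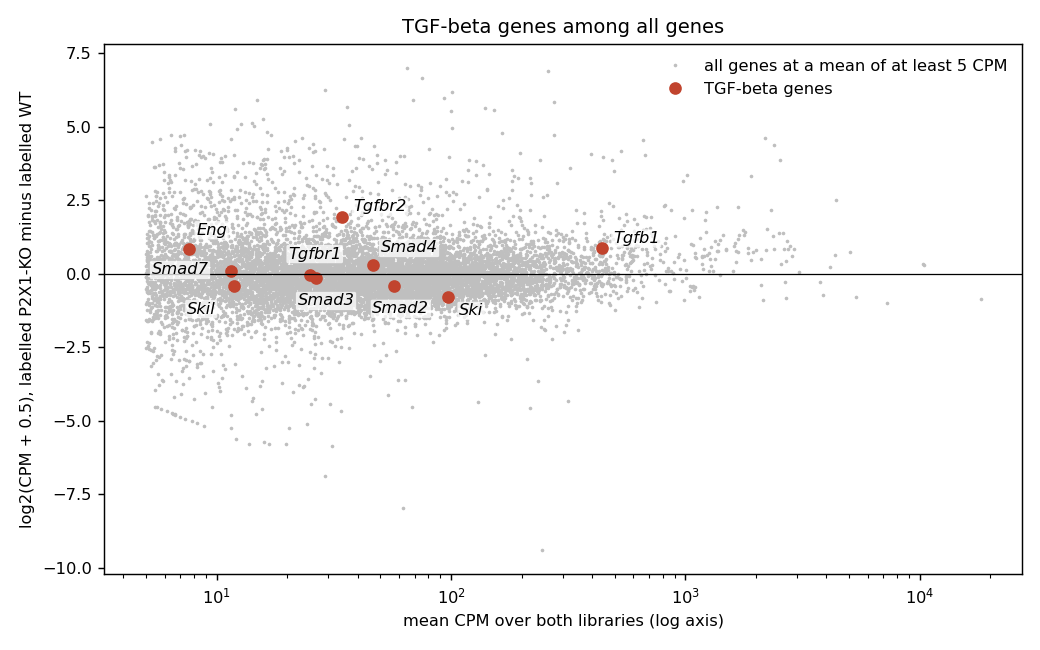
Log2 difference in CPM, the library labelled P2X1-KO minus the library labelled WT, against mean CPM (log axis) for 10483 genes in grey and the 10 TGF-beta genes in red. Tgfbr2, at a log2 difference of 1.94, is the member farthest from 0, and Ski, at -0.80, is the lowest.

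Of the wider pathway, 130 further genes were listed by role, and 69 had a mean of at least 5 CPM. Of those, 11 (15.9%) were higher by 2-fold or more in the library labelled P2X1-KO and 4 (5.80%) lower, beside 12.1% and 10.6% of all genes. Their median log2 difference was -0.21, and 0.08 after the length and GC correction. The groups were uneven, and a gene low in one library passes the 5 CPM minimum only where the other is high. Among the higher genes, Acvrl1, Bmpr1a, Zfyve9 and Col1a1 passed it through the library labelled P2X1-KO alone, so the minimum fixed their direction. The 4 lower genes were above 5 CPM in both libraries.

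Genes that store and release the ligand were measured for 4 of 14. Thbs1, which encodes thrombospondin-1, an activator of latent TGF-beta, was 3.11-fold higher (interval 2.73 to 3.54), at 74.3 CPM in the library labelled P2X1-KO and 23.9 CPM in the library labelled WT. The other 3 lay within 2-fold, among them Nrros, whose product holds latent TGF-beta on myeloid cells, at 404 CPM in the library labelled P2X1-KO against 269 CPM in the library labelled WT. Nrros was named after its values were seen.

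Of the other receptors, 6 of 17 were measured, and 2 were higher by 2-fold or more. Acvrl1, which encodes ALK1, the type I receptor known to pair with endoglin in endothelium, had 151 counts in the library labelled P2X1-KO and 9 in the library labelled WT, 29.4-fold higher (interval 15.1 to 65.7). Bmpr1a, a type I receptor for bone morphogenetic proteins (BMPs), had 101 counts in the library labelled P2X1-KO and 63 in the library labelled WT and was 2.81-fold higher (2.03 to 3.92). In the library labelled WT, Acvrl1 was at 0.577 CPM and Bmpr1a at 4.04 CPM. Each reached the mean of 5 CPM through the library labelled P2X1-KO alone. Tgfbr3, the betaglycan gene, had 0 counts in the library labelled P2X1-KO and 1 in the library labelled WT. The BMP-branch SMADs Smad1 and Smad5, named outside the rule, lay within 2-fold, Smad5 at 39.1 CPM in the library labelled P2X1-KO against 53.2 CPM in the library labelled WT.

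Genes that tune receptors and SMADs were mostly within 2-fold, 17 of 19 measured. Zfyve9, which encodes SARA, the anchor that presents SMAD2 and SMAD3 to the receptor, was 13.3-fold higher (interval 7.85 to 24.0). It had 121 counts in the library labelled P2X1-KO against 16 in the library labelled WT. At 1.03 CPM in the library labelled WT, it reached the mean of 5 CPM through the library labelled P2X1-KO alone. Usp11, a deubiquitinase gene, was 3.56-fold lower (2.89 to 4.43), at 11.6 CPM in the library labelled P2X1-KO and 41.3 CPM in the library labelled WT. Among 12 measured nuclear partners, Crebbp, which encodes the co-activator CBP, was 2.18-fold lower (1.94 to 2.46). In the branch that bypasses SMADs, 10 of 11 genes lay within 2-fold, and Traf6, a ubiquitin ligase gene, was 2.23-fold lower (1.97 to 2.54). Crebbp and Traf6 were 1.67-fold and 1.68-fold lower after the length and GC correction, within 2-fold.

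Genes known to be induced by TGF-beta lay in both directions. Among the 11 measured, 5 (45.5%) were higher by 2-fold or more in the library labelled P2X1-KO and 1 (9.09%) was lower by as much. Among the 10483 genes these shares were 12.1% and 10.6%. The list's median log2 difference was 0.92, beside -0.08 for the 10483 genes. Col1a1, a collagen gene that is also on the stromal list, had 1327 counts in the library labelled P2X1-KO and 15 in the library labelled WT, 155-fold higher (interval 93.8 to 278). It reached the mean of 5 CPM through the library labelled P2X1-KO alone. Fn1, which encodes fibronectin, was 10.2-fold higher (9.82 to 10.6), at 1848 CPM in the library labelled P2X1-KO against 181 CPM in the library labelled WT. Tgfbi, a matrix protein gene also known from monocytes, was 3.18-fold higher (2.90 to 3.48). The other 2 higher genes, named after their values were seen, were Klf10, a zinc finger gene, at 2.78-fold (2.45 to 3.16), and Cdkn1a, a cell cycle inhibitor gene, at 2.13-fold (1.92 to 2.37). Tsc22d1, a leucine zipper gene, was 4.69-fold lower (3.55 to 6.31), at 6.30 CPM in the library labelled P2X1-KO and 29.6 CPM in the library labelled WT. Skil and Smad7 are also known TGF-beta targets, and as given above neither was 2-fold higher. The marker sums given above differ between the same libraries, and their part in these values was not tested.

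Among 3 measured genes induced by BMPs, Id2, a dominant-negative helix-loop-helix gene, was 10.2-fold higher (interval 9.28 to 11.2), at 339 CPM in the library labelled P2X1-KO and 33.3 CPM in the library labelled WT. Id1 stood at 88.8 CPM in the library labelled P2X1-KO against 168 CPM in the library labelled WT, within 2-fold with TMM, and was named after its values were seen. Of 23 genes for BMP and activin ligands and their antagonists, 2 reached a mean of 5 CPM and neither was 2-fold apart.

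**Figure D5:**
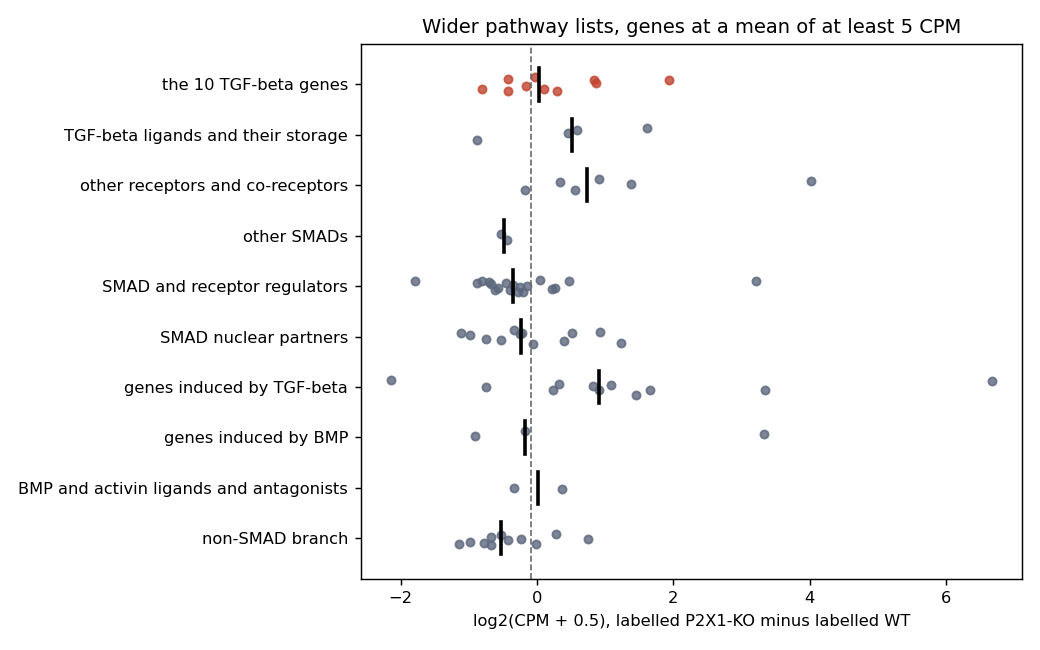
Log2 difference in CPM, the library labelled P2X1-KO minus the library labelled WT, for genes at a mean of at least 5 CPM in each pathway list (points, spread vertically at random) with the list median (black bar). The dashed line is the median of all genes, -0.08. Genes induced by TGF-beta have the highest list median at 0.92, and with this scaling the non-SMAD branch has the lowest at -0.53.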

How the data were processed

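RNA sequencing measured 2 libraries, 1 per group, as the labels group them. The values the authors deposited are raw read counts, 1 whole number per gene symbol and library. Reads were aligned with HISAT2 2.0.4 to mm10, per the submitters' processing notes. How reads were counted (tool, annotation, strand, filters) is not stated in those sources. The 27 rows whose symbols had become calendar dates stayed in the totals.

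Counts were scaled by TMM in edgeR 4.0.16 (R 4.3.3). Ratios of CPM carry exact 95% intervals of the count split given the sum (Clopper-Pearson), counts carry exact Poisson intervals, and pairs of genes carry conditional odds-ratio intervals (SciPy 1.17.1). These cover counting error only, since reads are not independent molecules. The size rule was a ratio of 2 or more for genes whose mean reached 5 CPM. The calculation of the ratios was tested on simulated data, which says nothing about the spread between replicate libraries. A floor of 3 counts stood in for a count of 0 only in the fold given for Tgif2. CPM, sums and log2 differences kept the 0. Positions and exon lengths came from GENCODE M21, on the same assembly, and promoter windows from RefSeq (GRCm38.p6).

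Alternatives were total counts, upper-quartile scaling, DESeq2 1.42.0 median-of-ratios factors, totals without the 20 most abundant genes, and other filters, fold thresholds and pseudocounts (0.1 and 1 CPM in place of 0.5). The length and GC correction subtracted the median log2 difference in 20 bins of exon length and then 20 bins of the GC content of the longest transcript. The transcript GC content was chosen after seeing the data, and 95.4% of the genes at the minimum had both values. Named genes were the 10 members, P2rx1, Kit, Itgam and up to 3 genes per direction and list that were 2-fold apart, in order of the interval bound nearest to no change. With 2 libraries a pattern is a single ratio, so no genes were named for likeness. The members and lists were chosen with earlier results of these data known. Some genes of the lists are not reported here.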

Additional observations from a re-analysis of the deposited data

How the results depend on the processing

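The sides of 1 held for 45 of the 50 member ratios computed under 4 other scalings and the length and GC correction, the exceptions being those given for Tgfbr1, Smad2 and Smad7. With total counts without the 20 most abundant genes, 1 member (Ski) was at least 2-fold lower, and at a ratio of at least 1.5 there were 3 higher (Tgfb1, Tgfbr2, Eng) and 1 lower (Ski). For all genes, 2074 higher and 1870 lower were counted at a mean of at least 1 CPM, 3604 and 6484 at 1 count or more, and 2293 and 2539 at a ratio of 1.5, beside 1271 and 1110. Those lower numbered 1731 without the 20 most abundant genes in the totals and 651 by whole intervals. Of the genes called, 53.4% were higher with TMM and 46.6% lower, against 38.7% and 61.3% with total counts and 37.2% and 62.8% without the 20 most abundant genes. The wider pathway genes numbered 27 higher and 23 lower at 1 count or more and 17 and 18 at a ratio of 1.5. Their 4 lower genes became 9 with total counts, 11 without the 20 most abundant genes and 2 by whole intervals. Looser filters and folds add genes by construction; for the scalings the cause was not tested. Of 90 counts for single lists, 73 stayed within 1.5 times.

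No paired analysis was possible because each group had 1 library, so there was also no replicate to leave out. With 83 counts in the library labelled WT, the lowest of any member, Eng had an interval that held 2.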

Other observations

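Some pathway genes below the mean of 5 CPM were far apart, and they are named here after their values were seen. Tgif2, a homeobox co-repressor gene of SMAD2 and SMAD3, had 0 counts in the library labelled P2X1-KO and 134 in the library labelled WT. It was 25.4-fold lower when the 0 is set to the floor of 3 counts. The exact interval starts at 20.4-fold lower, so 25.4-fold is not a lower bound. Its relative Tgif1 stood at 27.2 CPM in the library labelled P2X1-KO and 14.05 CPM in the library labelled WT, a ratio of 1.94 (interval 1.61 to 2.34). Bgn, which encodes biglycan, a matrix proteoglycan that binds TGF-beta, had 40 counts in the library labelled P2X1-KO and 1 in the library labelled WT, a ratio of 70.2 (interval 11.9 to 2842). Smad6, the inhibitory SMAD of the BMP branch, had 20 counts in the library labelled P2X1-KO and 68 in the library labelled WT, 1.94-fold lower (interval 1.16 to 3.37).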
